A study of Mus musculus with 18 samples.

Results

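The cytosolic ribosomal protein genes were described in bulk liver RNA of 18 mice, in which the study asked how loss of *Apoe* changes the response to ethanol. The genes were chosen by name: all symbols that begin with Rpl or Rps followed by a number, the P-stalk proteins and Rpsa. Symbols that hold -ps, a mark of pseudogenes, and the 8 Rps6k kinase genes were left out. This gave 88 of the 15052 genes of the table, of which 51 belong to the large subunit and 36 to the small subunit. Rps19bp1, an Rps19-binding protein that the name rule also takes in, is neither and is counted apart. The 88 members hold 77 core genes (46 of the large and 31 of the small subunit), 4 expressed paralogs (Rps27l, Rpl36al, Rpl22l1 and Rpl7l1) and 6 retrogenes (Rpl35rt, Rps23rg1, Rpl6l, Rps3a2, Rps3a3 and Rps27rt). The GENCODE annotation lists the retrogenes Rpl6l, Rps3a2 and Rps3a3 as processed pseudogenes. The paralogs Rpl3l, Rpl10l, Rpl39l and Rps4l were not analysed here.

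The mice were wild type (WT) or *Apoe* knockout (KO), 10 to 12 weeks old. After 5 days on control liquid diet, EtOH-fed mice received a Lieber-DeCarli diet with 5% ethanol by volume for 10 days and, on day 11, a gavage of ethanol at 5 g/kg, and were euthanized after 9 hours. Pair-fed mice received the isocaloric control diet and a gavage of dextrin-maltose at 9 g/kg. Among WT mice, 4 were pair-fed and 5 received EtOH, and among *Apoe* KO mice 5 were pair-fed and 4 received EtOH. The EtOH-fed KO mice carry the numbers 1, 2, 4 and 5. The knockout is a germline line bought from a vendor, as were the C57BL/6J WT mice, so that all cell types carry it, and whether mice were littermates is not stated. *Apoe* itself was 717118 ± 59233 (SD, n = 4) in pair-fed WT and 38291 ± 40868 (n = 5) in pair-fed KO mice, and 709804 ± 86543 (n = 5) and 45038 ± 22670 (n = 4) with EtOH.

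Values are read counts that the authors had scaled to a nearly common total of 32267493 to 32292618 per mouse and rounded, so that depth is known only indirectly. Judged by which whole numbers occur among the low values, 1 read stood for about 1 unit or less in 7 mice and for up to 5.82 units in pair-fed WT mouse 1. All mice are labelled female, but in EtOH-fed KO mouse 1 the value of *Xist*, the RNA of the silenced X chromosome, was 826 against 15227 to 30379 in the other 17 mice, and the median and the called genes of each comparison with this group are also given without that mouse. In bulk liver, fewer cells of a type and less RNA per cell cannot be told apart. All 6 hepatocyte markers were present in every group, and their summed values overlapped between all groups, from 2026889 to 3642736. With ethanol 2 of the 6 were called higher in WT mice, where 6.19% of all genes were, and 1 in KO mice, where 16.3% were. The summed values of 6 Kupffer cell markers were 4502 to 8553 in EtOH-fed WT and 11135 to 21513 in EtOH-fed KO mice.

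Each ribosome consists of a small subunit, which reads the mRNA, and a large subunit, which forms the peptide bond. Each core protein is present in equal number per ribosome, apart from the P-stalk proteins, and hepatocytes, which secrete most plasma proteins, hold very many ribosomes. Mammalian ribosomal protein mRNAs begin with a terminal oligopyrimidine (TOP) tract, a run of C and U at the cap, through which mTOR, LARP1 and the 4E-BP proteins control how much they are translated. The RNA levels given here therefore bear on the amount of mRNA and not on its translation.

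The start sites of 6 members on which the results turn are shown because of this tract. The windows run from 10 bases before to 20 bases from the start site on the sense strand (RefSeq, GRCm38.p6), with the longest unbroken run of C and T that reaches to within 5 bases of the start in capitals where it had at least 5 bases. Rps18 followed the other members most closely, Rpl12, Rpl10a, Rpl19 and Rpl7l1 passed a test below, and Rps23rg1 fell with ethanol.
Rps18, chr17:33955646-33955675, minus strand: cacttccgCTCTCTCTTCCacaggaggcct
Rpl12, chr2:32961702-32961731, plus strand: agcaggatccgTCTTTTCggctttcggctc
Rpl10a, chr17:28328461-28328490, plus strand: gCCCCCCCagcggccgcaaactgcagcgcc
Rpl19, chr11:98026700-98026729, plus strand: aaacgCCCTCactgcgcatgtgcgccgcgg
Rpl7l1, chr17:46782637-46782666, minus strand: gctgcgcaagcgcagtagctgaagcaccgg
Rps23rg1, chr8:3567988-3568017, plus strand: gcagagagTCTTTCTCTCaccccagataaa
Rps18 and the retrogene Rps23rg1 held long runs across the start, Rpl7l1 held none, and Rpl3 had no entry. The runs of Rpl10a and Rpl19 lay wholly before the annotated start, outside the mRNA, and that of Rpl12 just after it.

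Of the 77 core genes, 57 were found in the RefSeq promoter table, and 31 of them (54.4%) held such a run of at least 5 bases. The count takes runs before, across or after the start, so a run is not in each case a tract at the cap. The share was 32.9% over all 27025 genes of that table and 40.6% over 69 mitochondrial ribosomal protein genes, whose mRNAs are not TOP mRNAs as a class. The letters CTTT, sought from 5 bases before to 10 bases after the start, were found on the sense strand in 22.8% of the core genes, 5.54% of all genes and 4.35% of the mitochondrial genes. On the antisense strand, CTTT was found in 3.51% of the core genes and 5.12% of all genes. A match describes the letters of the window and was not tested as a functional site.

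The core members were among the high values of the liver, with a median over genes of 7170 units. In WT mice they made up 1.74% to 2.11% of all values when pair-fed and 1.57% to 2.45% with EtOH, and in KO mice 1.37% to 1.88% when pair-fed and 1.58% to 1.83% with EtOH. Per kb of the principal GENCODE transcript, the highest levels over the 18 mice were those of Rplp1, an acidic protein of the P-stalk that recruits elongation factors, with 26021 units per kb, of Rpl41, a very short basic peptide, with 22680, and of Rps18, a protein of the small subunit head, with 20992. The lowest levels per kb were those of 2 retrogenes, Rps23rg1 with 25.1 and Rps3a2 with 48.3, and of Rpl24, a core protein of the large subunit, with 36.2.

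Rpl24 was not the only core gene with a low value. Rps10, a protein of the small subunit head, held 219 units per kb and Rpl13a, which also acts in an interferon-gamma-dependent translational silencing complex, held 383, whereas the median core gene held 9852. In the GENCODE annotation the exons of these 3 genes, and of the low paralog Rpl36al (84.4 units per kb), are shared on the same strand with another gene. The overlap covered 71.5% of the transcript of Rpl24 (with Gm28037), 91.6% of Rps10 (with RPS10-NUDT3), 59.3% of Rpl13a (with Gm45713 and Mir5121) and 63.1% of Rpl36al (with Gm49383). These 4 members were those with over 20% same-strand overlap among the 88. Among the other members, 10.7% of Rpl19 overlapped Gm27597. The values of these genes are uncertain as levels, because reads that lie in more than 1 gene may not have been counted, and this was not tested. Exons on the other strand covered 68.3% of Rpl35, 55.4% of Rpl23a, 46.6% of Rpl5 and 35.6% of Rps23rg1, among others. Their effect on the values was also not tested.

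Sequence shared with copies elsewhere is the rule in this family. Of the 88 members, 86 shared at least 1 window of 50 bases with a transcript of another gene, and the median member shared 62.8% of its windows. Rps27 shared 98.6%, Rps18 86.7% and Rpl3 85.6%, while Rpl7l1 shared 12.2% and Rps3 2.96%. The 49 ribosomal protein pseudogenes with -ps in their symbols summed to 8086 to 14066 units per mouse, against 440858 to 792047 for the core genes. How the authors' counting treated reads with several positions is not given in the sources used here, so small differences between a member and its copies are uncertain.

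The core members varied together from mouse to mouse. After the group means were removed, 76.6% of their variance lay on 1 component, and the median SD of a core member within groups was 0.22 on the log2 scale, with a range from 0.10 to 0.54. Each member was compared with the mean of the other core members over the 18 mice, which share libraries and scaling. The median Pearson correlation was 0.89, and 61 of 77 exceeded 0.8. Rps18 (0.988) and Rps13 (0.981), both of the small subunit, were among the 3 with the highest Pearson correlations, with Spearman correlations of 0.965 and 0.957. Rpl23a (0.0586), Rpl3 (0.153) and Rpl24 (0.467) had the lowest, with Spearman correlations of −0.139, 0.0609 and 0.490. Rpl3, which lies close to the peptidyl transferase center, ranged only from 10763 to 12328 in pair-fed mice, and Rpl23a, at the exit of the nascent chain, ranged from 1385 to 2201 over all 18 mice.

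The difference between the subunits overlapped between the 4 groups. The mean over large subunit genes was below that over small subunit genes in each of the 18 mice, with differences between −0.26 and −0.18 on the log2 scale, a difference of levels that is not corrected for transcript length. The means include the low and uncertain values of Rpl24 and Rpl13a (large) and of Rps10 (small), so the size of the difference is uncertain as well. In WT mice the difference between the subunits was −0.20 ± 0.01 (SD, n = 4) when pair-fed and −0.21 ± 0.02 (n = 5) with EtOH, and in KO mice −0.23 ± 0.04 (n = 5) when pair-fed and −0.20 ± 0.02 (n = 4) with EtOH. The mean over all core members was 12.66 ± 0.13 in pair-fed and 12.55 ± 0.28 in EtOH-fed WT mice, and 12.35 ± 0.19 in pair-fed and 12.45 ± 0.09 in EtOH-fed KO mice. EtOH-fed WT mouse 5 was the highest of all with 13.00 and pair-fed KO mouse 2 the lowest with 12.06.

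**Figure D1:**
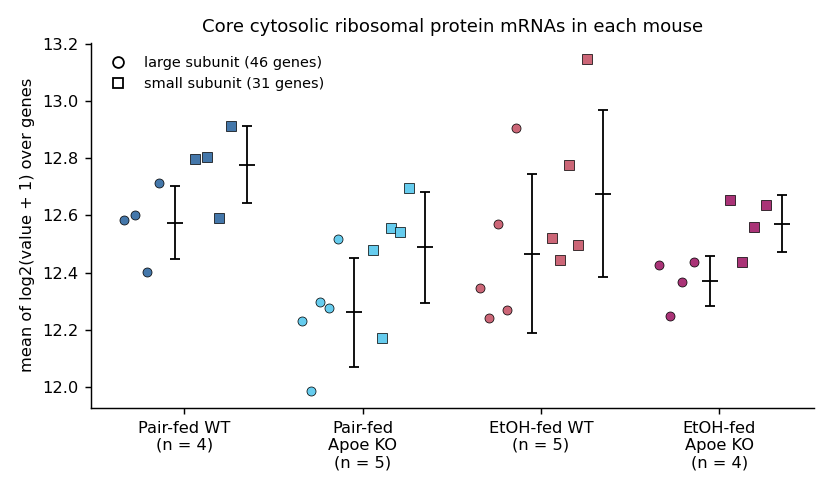
Mean of log2(value + 1) over the 46 large subunit genes (circles) and the 31 small subunit genes (squares) in each mouse of the 4 groups, with the group mean and SD beside them. The small subunit mean lies above the large subunit mean in each mouse, EtOH-fed WT mouse 5 is the highest, and all groups overlap.

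The comparison of pair-fed mice asked what loss of *Apoe* does without ethanol. In pair-fed mice, 80 of the 88 members had lower values in KO than in WT, with a median difference of −0.33 on the log2 scale, against −0.01 for all 15052 genes. By limma with Benjamini-Hochberg adjustment over all genes, 1 member passed an adjusted p of 0.05, where 1.73% of all genes did, and this was Rpl19, which lies at the tunnel exit side of the large subunit. Rpl19 was named after its values were seen, because its groups overlap and the rule for named genes asked that they do not. At an unadjusted p of 0.05, 54 members passed, where 19.9% of all genes did. Rpl19 (chr11:98026710-98030492) held 6373, 6588, 5543 and 7220 units in pair-fed WT and 4349, 3467, 4654, 4171 and 5668 in pair-fed KO mice. Only KO mouse 5 lay above the lowest WT mouse. The difference was −0.54 ± 0.13 (SE) with an adjusted p of 0.0495, and it no longer passed in 7 of the 9 fits that left out 1 mouse each, with differences from −0.63 to −0.45.

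Below Rpl19 in rank but with larger differences were other core genes, with transcripts from 345 bases (Rpl38) to 899 bases (Rpl21). Rpl38, a small protein of the large subunit, held 3089, 3509, 3382 and 5220 units in pair-fed WT and 2074, 1602, 2722, 2415 and 2931 in pair-fed KO mice. Its groups did not overlap, yet its difference of −0.69 ± 0.18 had an adjusted p of 0.0594. Rpl36a, Rpl37, Rps15a and Rps26 also lay below every WT mouse in every KO mouse, 5 core genes in all, where 3.02% of all genes did. These 5 were named after their values were seen. At the other end, Rpl9 differed by 0.04, Rps3 by 0.04 and Rpl5 by 0.00, with adjusted p-values from 0.844 to 0.985.

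The median pair-fed difference was −0.33 over the 46 core genes of the large subunit and −0.33 over the 31 of the small subunit. The 28 core genes with transcripts of at most 600 bases had a median of −0.38 and all lay below 0, and the 17 over 1 kb had a median of −0.25. Across the 77 core genes the Spearman correlation of length and difference was 0.44, with all values taken from the same 9 libraries. Among 311 other protein-coding genes with transcripts under 1 kb and a mean of at least 1000 units, the median difference was −0.19, with 4 higher and 16 lower by the test. These were 1.29% and 5.14%, where 0.87% of all genes were called higher and 0.864% lower. Over the 18 mice, the mean of these short genes followed the mean of the core members with a Pearson correlation of 0.82 and a Spearman correlation of 0.92, and with 0.78 without the 2 mice farthest from the median. When each mouse was centred on these short genes, a choice made after seeing the data, the median member difference was −0.13, with 64 of 88 below 0 and 0 called. The part of transcript length in the difference was not tested. Marker sums of other cell types were also lower in KO mice here. Of 6 sinusoidal endothelial markers, 5 had an unadjusted p under 0.05 and 1 was called lower, with a median of −0.42 and sums of 4783 to 5253 units in pair-fed WT and 3494 to 4880 in pair-fed KO mice. None of the T, NK, B and plasma cell markers was called. Those of T and NK cells (6 of 8 markers in the table) summed to 168 to 378 units in pair-fed WT and 88 to 127 in pair-fed KO mice, and 6 B and plasma cell markers to 584 to 1664 and 267 to 610 units. The part of these cells was not tested.

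**Figure D2:**
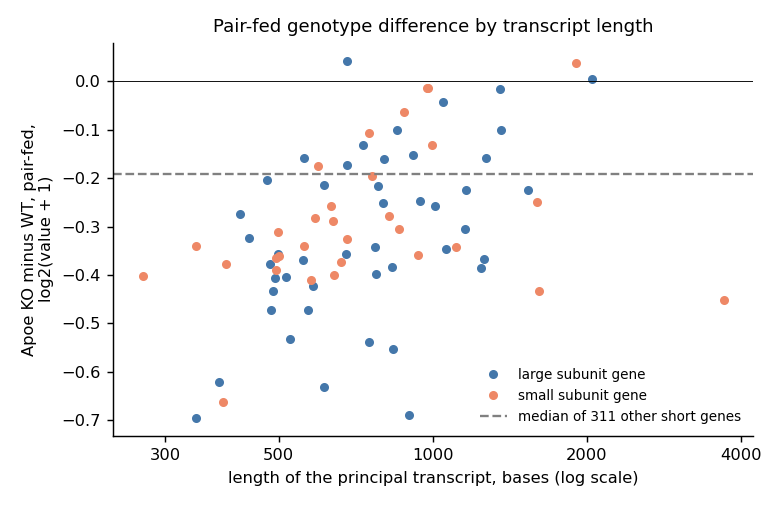
The pair-fed difference between *Apoe* KO and WT mice in log2(value + 1) for each of the 77 core genes against the length of its principal transcript on a log scale. Most points lie below the median of 311 other short genes (dashed line, −0.19), and all 28 genes with transcripts of at most 600 bases lie below 0.

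The number of members called in this comparison depended on single mice. Without pair-fed KO mouse 5, the KO mouse with the highest core mean, 18 members were called lower, without pair-fed WT mouse 3 the number was 10, and without any other mouse it was 0. The direction did not depend on them, since the median stayed between −0.39 and −0.22 in the 9 fits.

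The comparison of EtOH-fed mice asked what loss of *Apoe* does under ethanol. No member was called between EtOH-fed KO and WT mice by limma, where 4.69% of all genes were. None of the members had an unadjusted p under 0.05, where 2845 of all 15052 genes did. The median difference was −0.09, with 78 of 88 members below 0, while the median of all genes was 0.11. Relative to that shift the members lay lower, and with median-of-ratios scaling, which brought the median of all genes to −0.02, the median member lay at −0.22. The medians were −0.10 for the large and −0.09 for the small subunit. Rplp0, the core of the P-stalk, had the largest positive difference of the core genes, 0.20 ± 0.12 with an adjusted p of 0.388, and Rps12 the largest negative one, −0.27 with an adjusted p of 0.395.

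The sign of the median difference between EtOH-fed genotypes leaned on EtOH-fed WT mouse 5. Without this mouse the median was 0.01, and 48 of 88 members lay above 0. The median of all genes was then 0.12, so the members still lay lower than all genes. Without EtOH-fed KO mouse 1, whose *Xist* value does not match its label, the median was −0.13 with 0 called. The summed values of 7 stellate cell and fibroblast markers were 10596 to 17409 in WT and 18113 to 33135 in KO mice with EtOH, and the part of these cells was not tested.

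**Figure D3:**
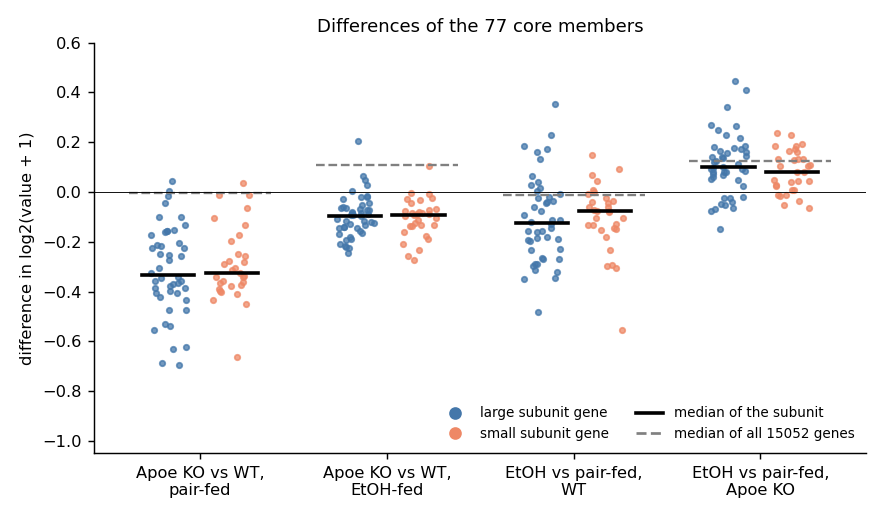
Differences in log2(value + 1) of each core gene in the 4 comparisons, large and small subunit side by side, with the subunit medians (bars) and the median of all 15052 genes (dashed). The pair-fed genotype comparison lies lowest, with medians of −0.33 for both subunits.

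Ethanol left the core members of WT mice without a called change. Of the 88 members, 2 were called between EtOH-fed and pair-fed WT mice, where 12.7% of all genes were, and neither was a core gene. They were the paralog Rpl7l1, which was higher, and the retrogene Rps23rg1, which was lower. The median member difference was −0.11 against −0.01 for all genes. Its direction turned when each mouse was centred on the short genes, with a median of 0.055 and 58 of 88 members above 0. Among core genes, Rps29 (−0.55, adjusted p = 0.0885) and Rpl21 (−0.48, adjusted p = 0.107) had the largest negative differences and Rpl13a (0.35, adjusted p = 0.342) the largest positive one. Without EtOH-fed WT mouse 5, 10 members were called, 9 of them lower, and the median was −0.21.

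In *Apoe* KO mice, 5 members were called with ethanol, where 23.2% of all genes were. Higher were Rpl7l1, Rpl10a, Rpl12 and Rpl3, and lower was Rps23rg1. The members had a median difference of 0.10 and all genes one of 0.13. Without EtOH-fed KO mouse 1 the same number was called, 4 higher and 1 lower, with a median of 0.08. Without pair-fed KO mouse 2, the mouse with the lowest core mean, the median was 0.02 with 50 of 88 above 0.

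Rpl10a and Rpl12 are neighbors of the mobile stalks of the large subunit, Rpl10a in the L1 stalk and Rpl12 at the base of the P-stalk. Rpl10a (chr17:28328471-28331033) held 5956, 5993, 6136, 6267 and 6961 units in pair-fed KO and 7888, 7266, 7623 and 9047 in EtOH-fed KO mice. All EtOH-fed KO mice lay above all pair-fed ones, and the difference was 0.34 ± 0.09 with an adjusted p of 0.0141. In WT mice, its difference with ethanol was 0.23 ± 0.15 with an adjusted p of 0.350.

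Rpl12 (chr2:32961559-32965345) held 5225, 5264, 5451, 5889 and 7071 units in pair-fed KO and 7695, 6187, 8180 and 8651 in EtOH-fed KO mice. EtOH-fed mouse 2 lay below pair-fed mouse 5, and the difference was 0.41 ± 0.12 with an adjusted p of 0.0232. Rpl3 (chr15:80077791-80091868) held 11401, 12328, 10763, 11366 and 11418 units in pair-fed KO and 13358, 12694, 14353 and 14638 in EtOH-fed KO mice. The groups of Rpl3 did not overlap, and its difference was 0.26 ± 0.08 with an adjusted p of 0.0347. With median-of-ratios scaling Rpl10a (0.22, adjusted p = 0.105), Rpl12 (0.28, adjusted p = 0.0769) and Rpl3 (0.14, adjusted p = 0.261) no longer passed. When 1 mouse was left out, Rpl10a kept its call in 9 of 9 fits, Rpl12 in 5 and Rpl3 in 3. Rpl12 lost it without pair-fed KO mouse 1 or 3 or EtOH-fed KO mouse 4 or 5, with differences down to 0.35, and Rpl3 without these 4 or pair-fed KO mouse 4 or 5, with differences down to 0.23. Without EtOH-fed KO mouse 1 the adjusted p-values were 0.026, 0.0451 and 0.0436.

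The interaction of diet and genotype was fitted on all 18 mice. No member was called by limma, where 2.84% of all genes were. At an unadjusted p under 0.05, 2 of the 88 members passed, where 2451 of all 15052 genes did. The ethanol difference was more positive in KO than in WT mice for 78 of 88 members, with a median of 0.21, against 0.11 for all genes and 0.16 for the short genes. It was 0.22 for both the large and the small subunit. With median-of-ratios scaling the median was 0.07, and with centring on the short genes 0.05. Leaving out 1 mouse moved it between 0.12, without pair-fed KO mouse 2, and 0.32, without EtOH-fed WT mouse 5, with 0 called in each of the 18 fits. Without EtOH-fed KO mouse 1 it was 0.17, with 76 of 88 above 0. The 4 comparisons share mice, and the low values of pair-fed KO mice enter both the pair-fed and the interaction difference.

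Rpl7l1 was the member that rose with ethanol in both genotypes. It is a nuclear paralog of Rpl7 (chr17:46773907-46782672) that acts in assembly of the large subunit rather than in the mature ribosome. It held 1723, 1798, 1873 and 1701 units in pair-fed WT and 2425, 2571, 2417, 2515 and 2652 in EtOH-fed WT mice. The difference was 0.50 ± 0.09 with an adjusted p of 0.00275. In KO mice it held 2131, 2022, 1877, 2173 and 1988 units when pair-fed and 2675, 2666, 3001 and 2803 with ethanol, a difference of 0.45 ± 0.08 with an adjusted p of 0.00208. Diet groups did not overlap in either genotype. The rise remained called in all 18 fits that left out 1 mouse (0.47 in KO mice without EtOH-fed KO mouse 1, adjusted p = 0.00384), and its interaction was −0.05 ± 0.11 with an adjusted p of 0.852. Its correlation with the core members over the 18 mice was −0.134.

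Rps23rg1 fell with ethanol in both genotypes. It is a retrotransposed copy of Rps23 (chr8:3567990-3584939). It held 58, 58, 69 and 57 units in pair-fed WT and 12, 21, 11, 3 and 11 in EtOH-fed WT mice, with a difference of −2.47 ± 0.46 and an adjusted p of 0.00437. In KO mice it held 57, 31, 36, 21 and 34 units when pair-fed and 19, 5, 0 and 0 with ethanol, with a difference of −3.40 ± 0.84 and an adjusted p of 0.0109. Diet groups did not overlap in either genotype, and the fall remained called without EtOH-fed KO mouse 1 (−4.27, adjusted p = 0.00211). These are few reads, since 1 read stood for about 4.12 and 3.96 units in the EtOH-fed KO mice 4 and 5 that were listed at 0, and on the log2(value + 1) scale the size of the fall depends on the added 1. With 0.1 in its place, the difference in KO mice was −5.10.

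The parent gene Rps23 was not called in any comparison. Rps23 held 7978 ± 1906 units in EtOH-fed WT and 8925 ± 1365 in pair-fed WT mice, with a difference of −0.18 ± 0.16 and an adjusted p of 0.506. In KO mice its difference was 0.05 ± 0.13 with an adjusted p of 0.823. Rps23rg1 shared 34.9% of its 50-base windows with transcripts of other genes, and its share of reads from Rps23 was not tested. Exons of other genes on the other strand covered 35.6% of its transcript, and their part was not tested.

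**Figure D4:**
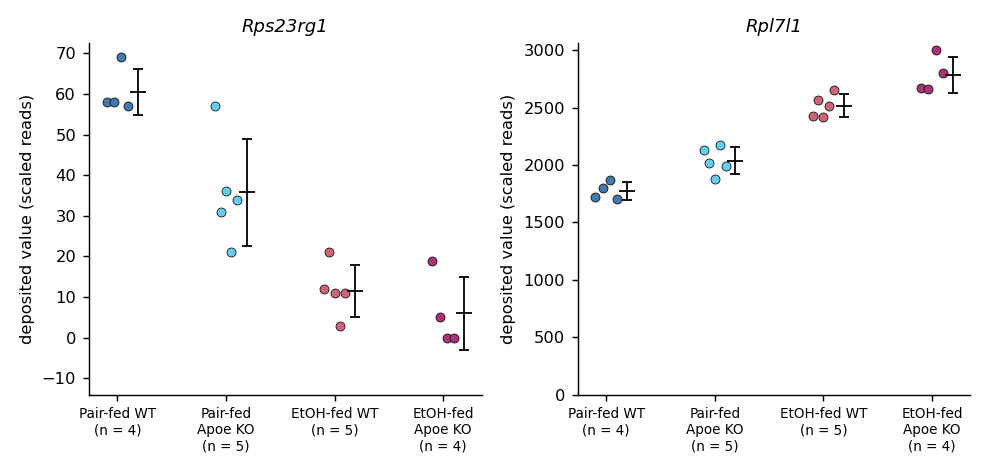
Deposited values of Rps23rg1 and Rpl7l1 in each mouse of the 4 groups, with the group mean and SD beside the points. The EtOH-fed mice lie below the pair-fed mice of the same genotype for Rps23rg1 and above them for Rpl7l1, without overlap.

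The other paralogs and retrogenes did not pass in any comparison. Rps27l, a p53 target related to Rps27, correlated with the core members at 0.904 and differed by −0.43 ± 0.14 in pair-fed KO against WT mice (adjusted p = 0.119). Rpl22l1, which can replace Rpl22 in the ribosome, held 679 to 1081 units over all mice and differed by 0.17 ± 0.14 with ethanol in WT (adjusted p = 0.468) and by 0.22 ± 0.12 in KO mice (adjusted p = 0.179). Its partner Rpl22 differed by −0.19 ± 0.12 in WT and −0.15 ± 0.10 in KO mice, with adjusted p-values of 0.332 and 0.315. Rpl36al held 19 to 100 units and Rps3a2 23 to 54, and their largest differences over the 4 comparisons, −0.33 and 0.21, had adjusted p-values of 0.689 and 0.771. Rps19bp1 held 407 to 703 units and correlated with the core members at 0.85.

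The stalk proteins and Rpsa, which is also known as a laminin receptor, were not called in any comparison. Rplp0, Rplp1, Rplp2 and Rpsa differed by −0.10, −0.36, −0.27 and −0.25 in pair-fed KO against WT mice, and by 0.23, 0.07, 0.18 and 0.23 with ethanol in KO mice. None of these differences passed, the lowest adjusted p being 0.1. Rplp0 held 14875, 13628, 15108, 13697 and 18292 units in EtOH-fed WT and 18053, 14704, 17988 and 18825 in EtOH-fed KO mice, and the groups overlapped. Its difference there was 0.20 ± 0.12 (SE) on the log2 scale, with an adjusted p of 0.388 by limma.

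Members with known second roles were also not called. Rpl5 and Rpl11, which bind MDM2 together with 5S rRNA when ribosome assembly fails, differed with ethanol by 0.17 ± 0.12 and −0.20 ± 0.14 in WT mice, with adjusted p-values of 0.364 and 0.392. Rps6, the substrate of S6 kinase, was among the most even, with 10425 to 14173 units over all mice and differences between −0.10 and 0.04. Rpl26, which binds p53 mRNA, differed by −0.53 ± 0.13 in pair-fed KO against WT mice with an adjusted p of 0.0555. Rpl13a had the largest positive difference of the core genes with ethanol in KO mice, 0.45 ± 0.15 with an adjusted p of 0.0521, on low values of 280 to 428 against 449 to 467 units. Rps3, which also takes part in DNA repair, Rps19, the gene most often mutated in Diamond-Blackfan anemia, Rps27a, which is made as a ubiquitin fusion, and Rps27 had differences between −0.34 and 0.15 over the 4 comparisons, and none passed.

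Many of the genes that build ribosomes rose with ethanol. Of 54 ribosome biogenesis genes (nucleolar and cytoplasmic assembly factors, RNA polymerase I subunits and processing factors), 22 rose and 0 fell in WT mice, where 6.19% of all genes rose. In *Apoe* KO mice 37 rose and 0 fell, where 16.3% of all genes rose. The median differences were 0.40 and 0.49, against −0.10 and 0.10 for the core ribosomal protein genes and −0.01 and 0.13 for all genes. In WT mice the number was 14 without pair-fed WT mouse 4, and 12 with the replicate block. In KO mice 35 rose without EtOH-fed KO mouse 1. With median-of-ratios scaling the numbers were 24 and 27. Between genotypes 0 of the 54 were called in pair-fed and 0 in EtOH-fed mice, where 1.73% and 4.69% of all genes were. At an unadjusted p under 0.05 the numbers were 5 and 3 of the 54, where 2991 and 2845 of all 15052 genes passed.

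Ddx21, a nucleolar RNA helicase, held 1044 to 1329 units in pair-fed WT and 1991 to 2529 in EtOH-fed WT mice, a difference of 0.83 ± 0.11 with an adjusted p of 0.000402. Bysl, which is needed for 40S assembly, held 369 to 481 and 667 to 832 units, a difference of 0.89 ± 0.12 with an adjusted p of 0.000625. Both rose in KO mice as well, by 0.81 ± 0.12 and 0.84 ± 0.13, with adjusted p-values of 0.000362 and 0.0005, and by 0.87 and 0.83 without EtOH-fed KO mouse 1. Diet groups did not overlap for either gene in either genotype. The summed values of 6 sinusoidal endothelial markers were also higher with ethanol, at 4783 to 5253 in pair-fed and 6306 to 8636 in EtOH-fed WT mice, and their part in these differences was not tested.

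**Figure D5:**
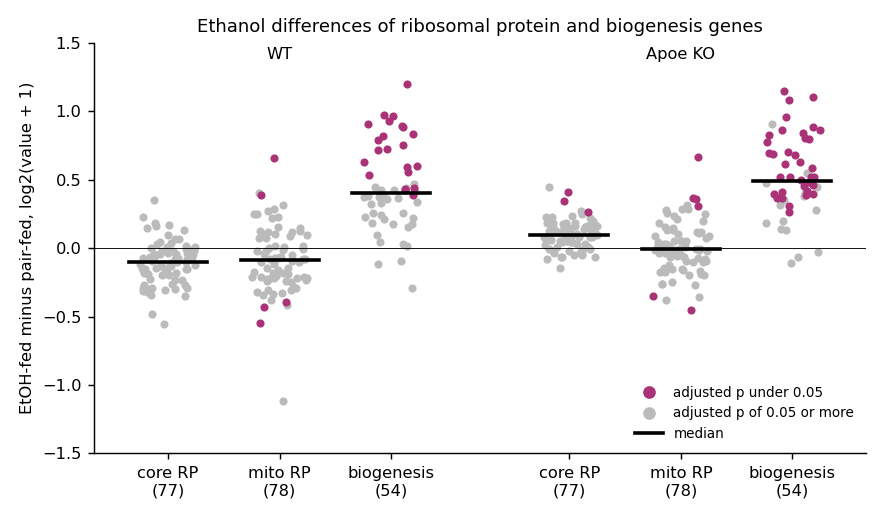
Difference between EtOH-fed and pair-fed mice in log2(value + 1) for each core ribosomal protein gene (core RP), mitochondrial ribosomal protein gene (mito RP) and ribosome biogenesis gene, in WT and in *Apoe* KO mice, with medians as bars and genes that passed an adjusted p of 0.05 in color. The biogenesis medians are 0.40 and 0.49, and 22 and 37 of 54 genes passed, all upward.

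Of 29 initiation factors, 7 rose and 1 fell with ethanol in WT mice, where 6.19% of all genes rose and 6.52% fell. In KO mice 10 rose and 1 fell, where 16.3% rose and 6.92% fell, and without EtOH-fed KO mouse 1 it was 9 and 1. The WT count of 8 dropped to 2 with the replicate block or without pair-fed WT mouse 3. Eif3c, a subunit of the factor that holds the 40S subunit, held 2950 to 3506 units in pair-fed and 4425 to 6200 in EtOH-fed WT mice, a difference of 0.66 ± 0.11 with an adjusted p of 0.00253. Eif3j1, another part of that complex, differed by 0.68 ± 0.13 in WT mice with an adjusted p of 0.00542. In KO mice Eif3c rose by 0.42 ± 0.09 (adjusted p = 0.00602), and by 0.43 without EtOH-fed KO mouse 1 (adjusted p = 0.0113). Eif3j1 was not called in KO mice, with a difference of 0.30 ± 0.13 and an adjusted p of 0.107. Of 18 elongation factors and other mRNAs of the TOP class, which begin with the same kind of tract as the members, 1 (5.56%) rose in WT mice, and 1 rose and 1 fell in KO mice, shares no higher than those of all genes. The gene that rose in WT was Eif3a, by 0.55 ± 0.11 with an adjusted p of 0.00597, and in KO mice it rose by 0.48 ± 0.09 with an adjusted p of 0.00179. The gene that fell in KO mice was Eif4b, an initiation factor that assists the helicase eIF4A, by 0.34 ± 0.10 on the log2 scale with an adjusted p of 0.0195, and it lost the call without EtOH-fed KO mouse 5 (adjusted p = 0.0628). Without EtOH-fed KO mouse 1 both remained called, at 0.53 and −0.38.

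Among 20 genes of the TOR pathway and regulators of TOP mRNAs, 1 was called between EtOH-fed genotypes, a share of 5% where 4.69% of all genes were called. This was Eif4ebp1, which encodes 4E-BP1, a translational repressor that TOR inactivates. It held 1151 to 1865 units in EtOH-fed WT and 2167 to 2862 in EtOH-fed KO mice without overlap, a difference of 0.62 ± 0.14 with an adjusted p of 0.0243. Without EtOH-fed KO mouse 1 it was no longer called (0.54, adjusted p = 0.0634), and it lost the call in 4 of 9 fits that left out 1 mouse (EtOH-fed KO mouse 1, 4 or 5 or EtOH-fed WT mouse 1), with differences from 0.51 to 0.68.

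With ethanol, 2 of the 20 (10%) rose in WT mice, where 6.19% of all genes rose. In KO mice 3 (15%) rose and 1 (5%) fell, where 16.3% of all genes rose and 6.92% fell. In KO mice Eif4ebp1 had the lowest adjusted p, with a rise of 0.65 ± 0.10 (adjusted p = 0.000456), and Eif4ebp2, which encodes the related repressor 4E-BP2, fell by 0.52 ± 0.09 on the log2 scale (adjusted p = 0.00142). Both kept the call in 9 of 9 fits that left out 1 mouse, with 0.56 and −0.56 without EtOH-fed KO mouse 1. Larp4, a poly(A)-binding protein partner, rose by 0.40 ± 0.10 in WT (adjusted p = 0.0226) and by 0.36 ± 0.12 in KO mice (adjusted p = 0.0486), calls that held in 7 and in 2 of 9 such fits. In WT mice Larp4 lost it without pair-fed WT mouse 2 or 4, and in KO mice it held without pair-fed KO mouse 1 and without EtOH-fed KO mouse 1. Ddit4, a stress-induced inhibitor of TOR, rose by 1.78 ± 0.55 in WT (adjusted p = 0.0499) and 1.45 ± 0.31 in KO mice (adjusted p = 0.00453), with 325 to 3239 units in the 5 EtOH-fed WT mice. Its call held in 3 of 9 fits in WT mice, those without EtOH-fed WT mouse 1, 4 or 5, and in 9 of 9 in KO mice, with 1.53 without EtOH-fed KO mouse 1.

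Among ribosome parts that the name rule leaves out, Fau (the small subunit protein eS30 as a ubiquitin-like fusion) and Rack1 (a signalling scaffold on the 40S subunit) were called in none of the 4 comparisons. They differed by −0.35 and −0.20 in pair-fed KO against WT mice, with adjusted p-values of 0.214 and 0.25. Mitochondrial ribosomal proteins are encoded in the nucleus and assembled in another compartment. They had a median of −0.13 in that comparison, with 1 of 78 called (1.28%, against 1.73% of all genes). Their mean followed that of the core members over the 18 mice with a Pearson correlation of 0.85 and a Spearman correlation of 0.88, and of 0.89 without the 2 mice farthest from the median. The 49 pseudogenes with -ps in their symbols had a median of −0.19 in the pair-fed comparison with 0 called. At an unadjusted p under 0.05, 8 of them passed, where 19.9% of all genes did.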

How the data were processed

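Poly(A) RNA of 18 livers had been sequenced. Per the labels and methods, the authors used Trimmomatic, HISAT2 (GRCm38), SAMtools and featureCounts; versions and multi-mapping settings are not given in the sources used here. The values the authors deposited per mouse are a signal, whole numbers made from read counts by a scaling that gives each mouse nearly the same total. The authors also deposited a mean signal, log2 fold changes with errors, a test score and ranks, p-values and adjusted p-values from DESeq2, none of which were used. Of 15247 lines, 195 repeated a gene, leaving 15052 genes; the 88 members were placed in GENCODE M21 (GRCm38), which gave transcript lengths and overlaps.

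Groups came from the labels. Differences were tested with limma 3.58.1 (R 4.3.3) on log2(value + 1) with an intensity trend, on the 2 groups compared (all 18 mice for the interaction), adjusted over 15052 genes (Benjamini-Hochberg), called under 0.05. Errors of differences are SE, others SD. The fit was tested on simulated data. Whether mice shared a litter or cage is not stated. Alternatives were another scaling, a common total without members, a minimum of 10, quality weights, the 4 groups fitted jointly, 0.1 as pseudocount, a replicate block and leaving out each mouse; centring on short genes was added after seeing the data.

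The members and lists were chosen with earlier results of these data known. Members were named if called without overlap of groups (3 largest each way), at the 3 highest or lowest levels per kb or correlations, or on short lists (stalk, paralogs, second roles); genes of outside lists by the 2 lowest adjusted p in the EtOH-fed genotype and WT diet comparisons. All names given beyond this rule were chosen after their values were seen. Some genes that the rule names are not reported here.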

Additional observations from a re-analysis of the deposited data

Results flagged for a closer look

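Among 128 sets of values (30 named members, the core mean and the subunit difference in 4 groups), 6 held a mouse whose gap to the nearest other mouse exceeded the limit of Dixon's test, where chance alone flags about 1 in 20, or 6.4. Pair-fed KO mouse 2 was lowest for Rpl22 (gap of 0.772 of the range), Rpl23a (0.781) and Rps27 (0.759). EtOH-fed WT mouse 5 was highest for Rps27 (0.746), and EtOH-fed KO mouse 1 was highest for Rplp2 (0.889). Pair-fed WT mouse 3 was highest for Rps23rg1 (0.909), with 69 units against 57 to 58 in the others.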

How the results depend on the processing

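Of 254 values recomputed under an alternative, 214 stayed close to the value reported and 40 moved. The differences of called members kept their sign, and 27 of 134 lost the call, all of Rpl19, Rpl10a, Rpl12 or Rpl3. Among members, the pair-fed genotype comparison moved most. It held 2 calls with median-of-ratios size factors, 3 with a minimum of 10 in every mouse, 4 with quality weights and 12 with the replicate block, and 0 with a common total of other genes, with 0.1 as pseudocount, with the 4 groups fitted jointly or with centring on short genes, where the median was −0.132; leaving out 1 mouse gave 0 to 18. For ethanol in WT mice, calls were 1 with the minimum of 10, which removed Rps23rg1, 4 with quality weights, 4 with the replicate block and 2 to 10 when 1 mouse was left out. For ethanol in KO mice they were 2 with median-of-ratios size factors and 3 to 6 when 1 mouse was left out, with 3 without pair-fed KO mouse 3 or EtOH-fed KO mouse 4 or 5. With median-of-ratios scaling the member median for ethanol in KO mice turned to −0.03.

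Whether replicate numbers pair the mice cannot be told from 4 same-number pairs per comparison, whose correlations ranged from −0.217 to 0.23. Their mean was 0.135 between EtOH-fed genotypes (other pairs −0.0327) and −0.0481 for ethanol in WT mice (other pairs 0.0118). In the replicate block a mouse without a partner number adds nothing. With it, 12 biogenesis genes were called for ethanol in WT mice, and 2 initiation factors; leaving out 1 mouse gave 14 to 24, with 14 without pair-fed WT mouse 4, and 2 to 8, with 2 to 5 without any 1 of the pair-fed WT mice or EtOH-fed WT mouse 3 or 5, and all groups in the fit gave 13 initiation factors. In KO mice, initiation factors called were 7 with median-of-ratios scaling, 7 with centring on short genes and 7 to 11 when 1 mouse was left out, with 7 without pair-fed KO mouse 3 or EtOH-fed KO mouse 5. The cause of these changes was not tested. Depth limits Rps23rg1, Rpl24, Rpl36al and Rps3a2, each at 100 units or less in every mouse.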
